A study of Homo sapiens with 12 samples.

Results

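The genes described here encode P-TEFb and the machinery it acts on when RNA polymerase II (Pol II) moves from pausing into productive elongation. They are the kinase gene CDK9, the cyclin genes CCNT1 and CCNT2, the 7SK RNP genes HEXIM1, LARP7 and MEPCE, the pausing and elongation factor genes SUPT5H and NELFE, and POLR2A, which encodes the largest subunit of Pol II. These 9 genes were chosen by name, with earlier results of these data known, and no measured value sets which genes they are. They come from 34109 genes with a count in any library and all 9 passed the filter on low counts that left 15692 genes for testing.

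Shortly after it starts, Pol II pauses under the hold of the NELF complex and of DSIF, which contains the SUPT5H product SPT5. P-TEFb, a dimer of CDK9 with cyclin T1 or T2, phosphorylates SPT5, NELF and the C-terminal domain (CTD) of the largest Pol II subunit and so releases the paused polymerase. Much of the P-TEFb of a cell is held inactive by HEXIM1 on the non-coding 7SK RNA, whose 5′ end is capped by MEPCE and whose 3′ end is bound by LARP7. Agents that arrest transcription, actinomycin D (Act D) among them, are known to free P-TEFb from this complex. Whether Act D did so at the low dose used here was not tested.

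RNA-seq libraries were made from the p53-null human colon carcinoma line HCT 116p53-/- and from a sub-line of it. The labels call the sub-line an RPL3 knockout (genotype P53-/-; RPL3 KO), whereas the study describes it as a line stably silenced for uL3 (uL3Δ), the ribosomal protein that RPL3 encodes, and whether it is 1 clone is not given in the sources used here. Both lines therefore lack p53. Cells of each line received 5 nM Act D or vehicle for 24 h. The paper states that such a low dose of Act D selectively blocks transcription by RNA polymerase I. Each of the 4 groups had 3 libraries, labelled as biological replicates.

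RPL3 mRNA was not lower in the sub-line at an adjusted p under 0.05 (log2 fold change 0.13, adjusted p = 0.155 with vehicle, and 0.12, adjusted p = 0.187 with Act D), so these libraries are named by their label, uL3Δ. Totals of counts per library lay between 10087925 and 21138886. The colon and epithelial markers were lower in the uL3Δ-labelled libraries for 6 of the 7 that could be tested of 11, and their summed level was 570 to 737 TPM there against 1262 to 1421 TPM in HCT 116p53-/-. KRT8, KRT18 and KRT19 gave most of these sums. KRT18 was higher with vehicle (log2 fold change 0.47), whereas the other 6 were 1.44-fold (KRT8) to 136-fold (CDH1) lower. Mesenchymal markers summed to 610 to 834 TPM against 12.1 to 24.1 TPM, with 4 of 5 tested of 6 higher. VIM alone gave 589 to 800 TPM of that sum in the uL3Δ-labelled libraries, and CDH2 did not pass with vehicle (log2 fold change -0.20, adjusted p = 0.772). CDX1 was at 0 in every library of 3 of the groups. The share of TPM taken by the small cytoplasmic 7SL RNA was 30.8 to 37.3% in the uL3Δ-labelled libraries and 23.8 to 28.6% in HCT 116p53-/-, and the share of mitochondrial counts was 7.10 to 12.15% with Act D and 4.57 to 9.51% with vehicle. Among the uL3Δ-labelled libraries with Act D, replicate 1 stood apart, with a chi-square per degree of freedom of 101.78 and 59.13 against the other two, which had 12.15 between them, and with the highest mitochondrial share of the 3 (9.83%). Without it 4 of the 9 genes passed for Act D in that line, where CCNT1 was gained (log2 fold change 0.34, adjusted p = 0.0311 in edgeR). Over all genes, fits without a single library of the groups compared called 1272 to 1709 there, against 1869 of 15692 with all libraries. The part of these differences in the results below was not tested. In RNA from whole cultures, fewer cells that express a gene and less RNA per cell cannot be told apart.

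The sequences that matter most for what follows are those of the 7SK RNA, on which HEXIM1 docks, and of the promoters of HEXIM1 and POLR2A, the members with the largest rise under Act D in HCT 116p53-/-. The 5′ stretch of 7SK RNA, which is 328 bases long (RN7SK, hg38 chr6:52995621-52995728, plus strand, GENCODE v44) are shown with each GATC, the letters of the known HEXIM1 docking element, in capitals. All 3 copies in the RNA lie in this stretch.
7SK RNA: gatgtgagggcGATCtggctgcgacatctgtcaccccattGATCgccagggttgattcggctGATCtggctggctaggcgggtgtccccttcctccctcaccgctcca

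The 250 bases before the RefSeq start of HEXIM1 (GRCh38.p14, chr17:45148225-45148474, plus strand) and of POLR2A (chr17:7484116-7484365, plus strand) were searched on both strands for TATAAA (the TATA box), CCAAT (the CCAAT box), GGGCGG (the GC box), CACGTG (the E-box) and GGAAGT (the ETS core). Every match is in capitals.
HEXIM1: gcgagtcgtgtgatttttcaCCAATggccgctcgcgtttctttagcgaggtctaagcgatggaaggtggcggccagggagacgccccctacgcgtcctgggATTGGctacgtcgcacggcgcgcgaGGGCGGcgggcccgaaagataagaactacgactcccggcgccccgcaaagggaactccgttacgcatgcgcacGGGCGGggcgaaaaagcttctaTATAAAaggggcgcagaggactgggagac
POLR2A: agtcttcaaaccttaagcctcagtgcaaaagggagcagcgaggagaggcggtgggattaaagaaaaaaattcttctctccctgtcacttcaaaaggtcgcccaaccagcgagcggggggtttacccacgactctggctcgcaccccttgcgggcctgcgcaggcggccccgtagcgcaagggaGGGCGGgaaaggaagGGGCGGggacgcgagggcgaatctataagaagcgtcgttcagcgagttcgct

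HEXIM1 had 1 TATAAA, 2 CCAAT and 2 GGGCGG matches, and POLR2A had 2 GGGCGG matches and no match to the other 4 motifs. Among 35116 RefSeq promoters of the same length, 10.7% held TATAAA, 32.0% CCAAT, 42.6% GGGCGG, 6.3% CACGTG and 19.5% GGAAGT on either strand. HEXIM1 was the only member with TATAAA among the 14 promoter entries of the 9 members. The 7SK RNA itself was very abundant. Its level was 13720, 16810 and 14780 CPM in HCT 116p53-/- with vehicle and 16380, 17130 and 17260 with Act D. All CPM values here are counts scaled to a library total that was first adjusted by the TMM factor of the library. The uL3Δ-labelled libraries had 14630, 15500 and 14290 CPM of it with vehicle and 16830, 15170 and 18210 with Act D. No comparison of RN7SK passed the test: the log2 fold change was 0.16 (95% interval -0.04 to 0.37) under Act D in HCT 116p53-/- (adjusted p = 0.266), 0.18 (-0.03 to 0.38) in the uL3Δ-labelled libraries (adjusted p = 0.268), and -0.03 between the lines with vehicle (adjusted p = 0.803). 7SK RNA carries no poly(A) tail, and how evenly the library kit recovered it was not tested.

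Levels of mRNA per transcript length (TPM) place the members between 3.40 and 58.9 TPM as group means. Protein levels of the members were not measured, so this order is one of mRNA alone. In HCT 116p53-/- with vehicle, SUPT5H (35.2 ± 3.16 TPM, SD, n = 3) and POLR2A (33.6 ± 7.09) led, followed by NELFE (25.1 ± 2.13), MEPCE (21.01 ± 2.24), LARP7 (19.2 ± 2.55), CCNT1 (14.5 ± 0.77), CDK9 (12.7 ± 1.33), HEXIM1 (9.84 ± 2.05) and CCNT2 (6.62 ± 1.5). Neighbours in this order overlapped in their libraries except for POLR2A over NELFE, LARP7 over CCNT1, and HEXIM1 over CCNT2. With Act D in the same line, POLR2A stood first at 58.9 ± 1.38 TPM, above every library of SUPT5H (34.7 ± 3.93), and HEXIM1 (17.3 ± 1.61) overlapped LARP7 (16.1 ± 1.14) and CDK9 (15.5 ± 0.60).
In the uL3Δ-labelled libraries the order was led by NELFE, at 32.3 ± 4.20 TPM with vehicle and 28.3 ± 3.44 with Act D (SD, n = 3 each), without overlap with the next gene in either condition. HEXIM1 was last with vehicle at 3.40 ± 1.34 TPM, overlapping CCNT2 (4.71 ± 0.71), which in turn overlapped CDK9 (5.05 ± 1.4). With Act D, CDK9 was last at 4.70 ± 0.08 TPM, below every library of CCNT2 (5.67 ± 0.96) and of HEXIM1 (7.23 ± 0.26). The TPM values of a library sum to a fixed total in which 7SL RNA takes a share that differs between the lines. They served here for the order of members within a group and for ratios within a library. Differences of single members between groups were not taken from them. The marker sums given above compare the lines in TPM and so carry this difference in share.

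**Figure D1:**
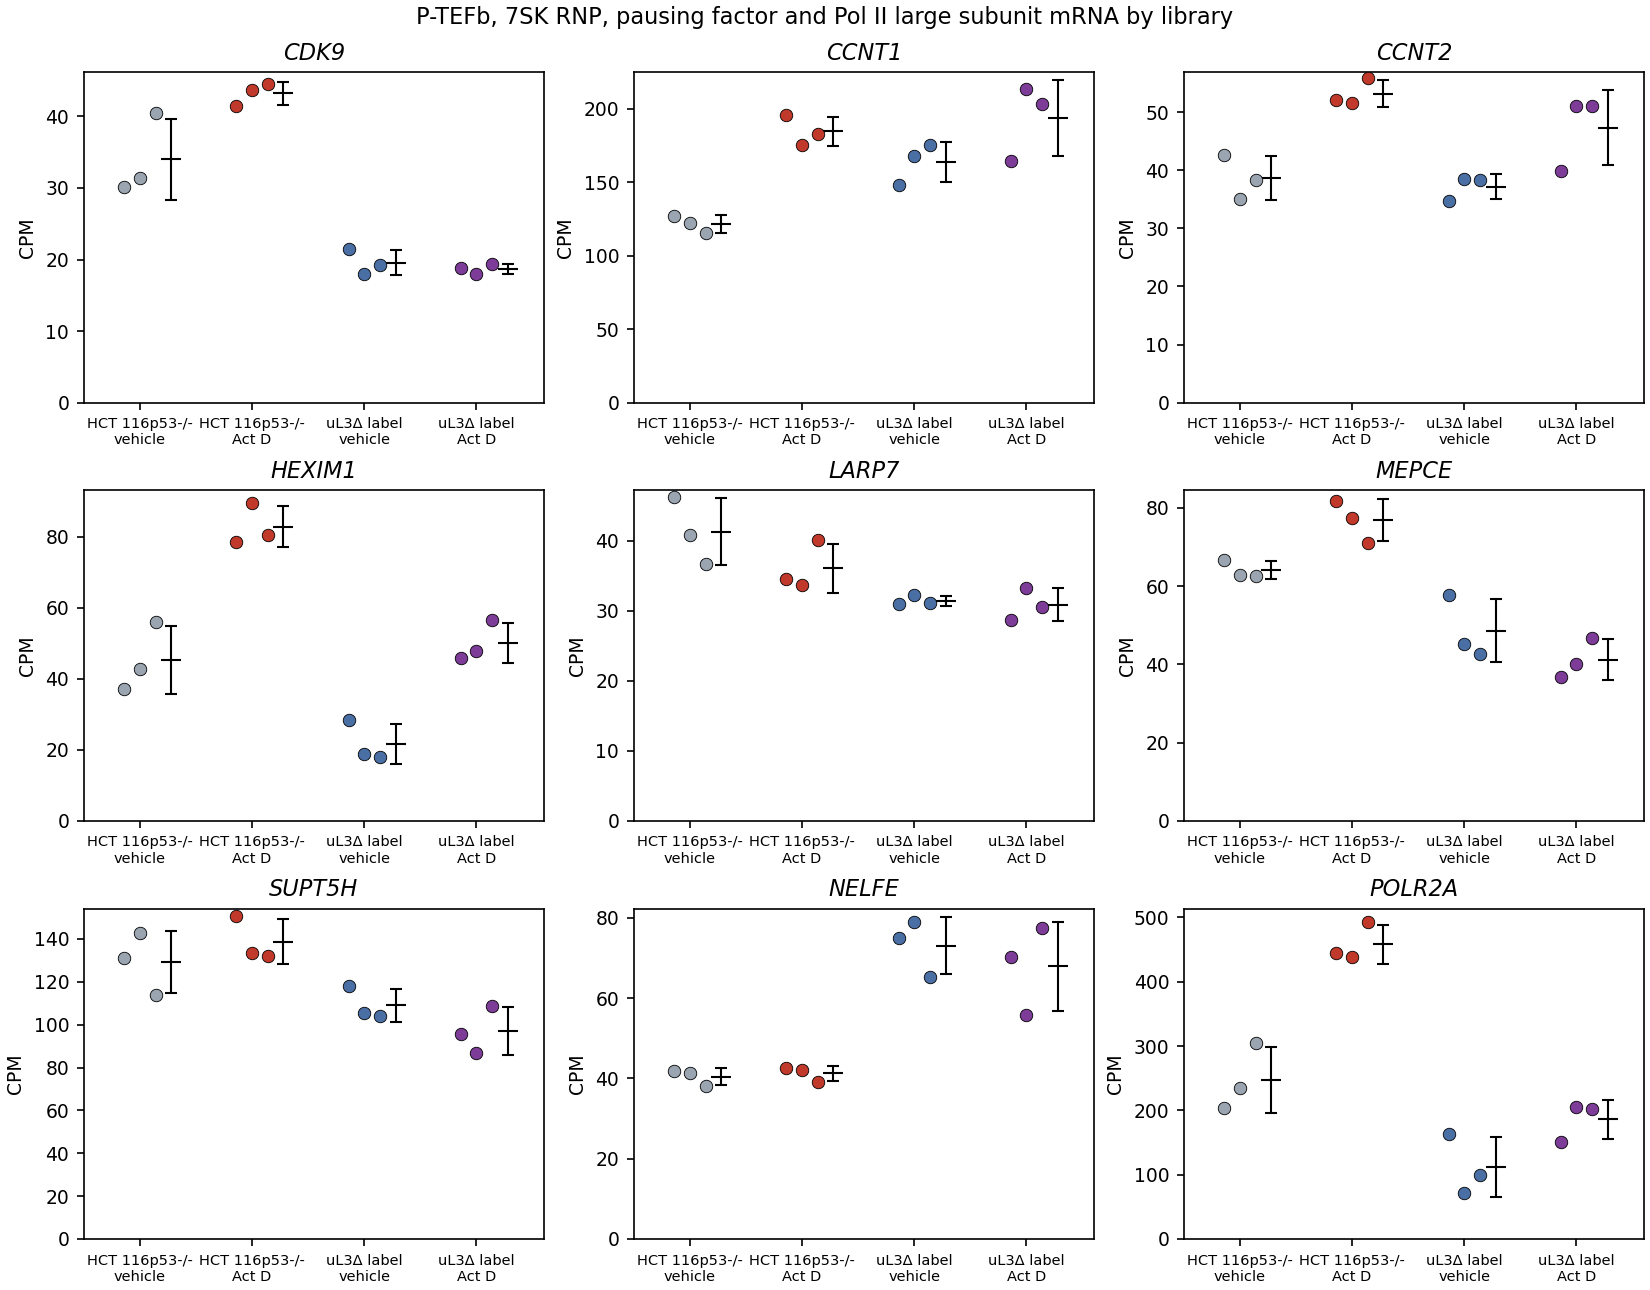
Level in CPM (vertical axes, from 0) of each of the 9 genes in the 12 libraries, by group. Points are libraries, and bars beside them the mean and SD of 3. HEXIM1 is at 78.5 to 89.4 CPM with Act D in HCT 116p53-/-, above its 37.1 to 55.9 CPM with vehicle, and NELFE is higher in all 6 uL3Δ-labelled libraries than in the 6 of HCT 116p53-/-.

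The response to Act D was compared first, since it addresses how mRNA of these genes differed with the drug in each line. In HCT 116p53-/- cells 5 of the 9 genes rose and none fell, where 18.7% of all genes tested passed in either direction, 7.59% as higher and 11.1% as lower. The genes that rose were CDK9, CCNT1, CCNT2, HEXIM1 and POLR2A, with a median log2 fold change over all 9 members of 0.34 against 0.02 over all genes. With and without Act D the libraries were fully apart for 6 of 9 members, the 5 that rose and MEPCE, and for 38.2% of all genes. In the uL3Δ-labelled libraries, 3 of 9 rose (HEXIM1, POLR2A and CCNT2) and none fell, where 11.9% of all genes passed, 3.51% as higher and 8.4% as lower, and the median of the 9 was -0.03 against 0.03 over all genes. The groups did not overlap for 2 of 9 members, HEXIM1 and CCNT2, and for 27.6% of all genes. Of the 3 that rose, HEXIM1 alone passed in all alternative analyses.

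HEXIM1, the inhibitor that holds P-TEFb on 7SK RNA, gave the clearest response. It is a gene of 1 exon on the plus strand of chromosome 17 (ENSG00000186834, hg38, 45148475 to 45152099), and 1700 bases of it overlap the antisense gene HEXIM2-AS1, whose reads cannot be told apart without strand. Its level was 37.1, 42.8 and 55.9 CPM in HCT 116p53-/- with vehicle and 78.5, 89.4 and 80.6 CPM with Act D. Among uL3Δ-labelled libraries it was 28.3, 18.8 and 17.9 CPM with vehicle and 45.9, 47.9 and 56.5 CPM with Act D. Treated and untreated libraries did not overlap in either line. The rise was 1.83-fold in HCT 116p53-/- (log2 fold change 0.87, 95% interval 0.55 to 1.19, adjusted p = 0.000609) and 2.33-fold in the uL3Δ-labelled libraries (1.22, 0.87 to 1.56, adjusted p = 0.0001). The difference between the 2 responses was 0.35 on the log2 scale (-0.12 to 0.82) and did not pass the test (adjusted p = 0.395).

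POLR2A (ENSG00000181222, plus strand of chromosome 17, 7484366 to 7514616) was the member with the highest CPM in HCT 116p53-/-, whereas CCNT1 had the higher mean in the uL3Δ-labelled libraries. It stood at 204, 235 and 304 CPM in HCT 116p53-/- with vehicle and at 444, 438 and 492 CPM with Act D, a rise of 1.85-fold (log2 fold change 0.89, 95% interval 0.45 to 1.33, adjusted p = 0.00611). The libraries labelled uL3Δ gave 164, 72.0 and 99.3 CPM with vehicle and 151, 205 and 202 CPM with Act D. Replicate 1 with vehicle lay above replicate 1 with Act D, so that these groups overlapped. The log2 fold change was 0.74 (0.29 to 1.19, adjusted p = 0.03). Leaving out replicate 2 with vehicle moved it to 0.50 (adjusted p = 0.107), and the call was also lost without vehicle replicate 3 (0.66, adjusted p = 0.0965), without Act D replicate 2 (0.64, adjusted p = 0.114) or replicate 3 (0.65, adjusted p = 0.113), with DESeq2 (0.74, adjusted p = 0.0737), with library size alone (0.61, adjusted p = 0.067) and with only the 2 groups compared (0.72, adjusted p = 0.0631). Without vehicle replicate 1 it was 1.12 (adjusted p = 0.000306).

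The cyclin genes rose in HCT 116p53-/-. CCNT1, whose product cyclin T1 is a partner of CDK9 (ENSG00000129315, minus strand of chromosome 12, 48688458 to 48716998), went from 127, 122 and 116 CPM to 196, 176 and 183 CPM, a 1.52-fold rise with no overlap (log2 fold change 0.60, 95% interval 0.40 to 0.81, adjusted p = 0.000292). Its uL3Δ-labelled libraries were at 148, 168 and 175 CPM with vehicle and 165, 213 and 204 CPM with Act D, groups that overlapped (0.24, 0.04 to 0.45, adjusted p = 0.125), and it passed without Act D replicate 1 (0.34, adjusted p = 0.0311). CCNT2, which encodes the alternative partner cyclin T2 (ENSG00000082258, plus strand of chromosome 2, 134918235 to 134959342), went from 42.7, 35.0 and 38.4 CPM to 52.1, 51.6 and 55.8 CPM in HCT 116p53-/- (0.46, 0.24 to 0.68, adjusted p = 0.00518).
CCNT2 in the uL3Δ-labelled libraries went from 34.7, 38.6 and 38.3 CPM to 39.9, 51.1 and 51.0 CPM, without overlap (0.34, 0.11 to 0.56, adjusted p = 0.0485). This last call did not hold in 10 of 14 alternatives. Among the libraries, it was lost without vehicle replicate 1 (0.29, adjusted p = 0.15), 2 (0.36, adjusted p = 0.0744) or 3 (0.35, adjusted p = 0.0832) and without Act D replicate 2 (0.26, adjusted p = 0.213) or 3 (0.25, adjusted p = 0.236).

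CDK9, the kinase (ENSG00000136807, plus strand of chromosome 9, 127785679 to 127790792), was measured at 30.1, 31.4 and 40.5 CPM in HCT 116p53-/- with vehicle and at 41.4, 43.8 and 44.5 CPM with Act D. All 3 treated libraries lay above the untreated ones, by a narrow margin over replicate 3. The rise was 1.27-fold (log2 fold change 0.34, 95% interval 0.11 to 0.58, adjusted p = 0.0375). It was lost without vehicle replicate 1 (0.26, adjusted p = 0.162) or 2 (0.29, adjusted p = 0.145) and without Act D replicate 1 (0.37, adjusted p = 0.0726), 2 (0.34, adjusted p = 0.104) or 3 (0.34, adjusted p = 0.0959), and was 0.49 (adjusted p = 0.00534) without vehicle replicate 3. It was also lost with library size alone (0.24, adjusted p = 0.203) and with no filter on low counts (0.34, adjusted p = 0.0555), so that 7 of 14 alternatives did not keep it. The libraries labelled uL3Δ had 21.5, 18.0 and 19.2 CPM of CDK9 with vehicle and 18.8, 17.9 and 19.4 CPM with Act D, groups that overlapped (-0.06, -0.32 to 0.20, adjusted p = 0.817).

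The other 7SK RNP genes and the pausing factors did not pass the test for Act D in either line. For LARP7, which protects the 3′ end of 7SK RNA, the log2 fold change was -0.20 (95% interval -0.41 to 0.02, adjusted p = 0.213) in HCT 116p53-/- and -0.03 (-0.26 to 0.20, adjusted p = 0.895) in the uL3Δ-labelled libraries. MEPCE, the capping enzyme of 7SK RNA, was at 0.26 (0.03 to 0.49, adjusted p = 0.111) and -0.24 (-0.48 to 0.01, adjusted p = 0.208), and passed in HCT 116p53-/- with only the 2 groups compared (adjusted p = 0.0256). SUPT5H was at 0.10 (-0.11 to 0.31, adjusted p = 0.531) and -0.17 (-0.38 to 0.05, adjusted p = 0.328), and NELFE at 0.03 (-0.20 to 0.26, adjusted p = 0.894) and -0.11 (-0.33 to 0.12, adjusted p = 0.591). For NELFE these intervals leave out a change of the size of HEXIM1 in either line.

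**Figure D2:**
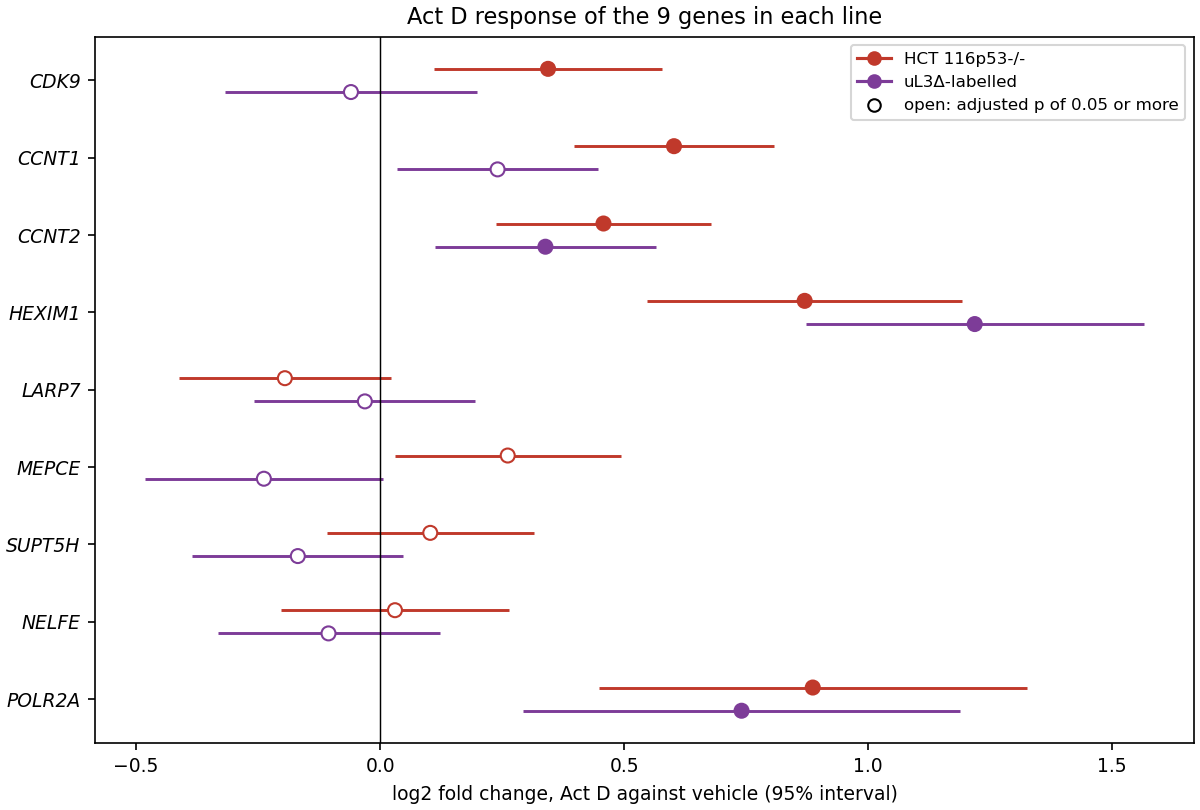
Log2 fold change of each gene with Act D against vehicle (horizontal axis) in each line, with its 95% interval. Filled points passed at an adjusted p under 0.05. HEXIM1 (0.87 and 1.22) and POLR2A (0.89 and 0.74) lie farthest to the right in both lines, and CDK9 and CCNT1 are filled for HCT 116p53-/- and open for the uL3Δ-labelled libraries.

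Whether the response differed between the lines was tested directly. None of the 9 genes passed in edgeR's quasi-likelihood test, where 6.53% of all genes did. Of all genes, 3.3% passed with a higher and 3.23% with a lower response in the uL3Δ-labelled libraries. That share is no background for the next counts, whose shares over all genes are not given here. DESeq2 called 1 of 9, and in edgeR's test 3 of 9 had an unadjusted p under 0.05. These were MEPCE, at -0.50 on the log2 scale (95% interval -0.84 to -0.16, adjusted p = 0.0709), CDK9 at -0.40 (-0.75 to -0.06, adjusted p = 0.159) and CCNT1 at -0.36 (-0.65 to -0.07, adjusted p = 0.131), in each case the response in the uL3Δ-labelled libraries minus that in HCT 116p53-/-. MEPCE was the gene called by DESeq2 (adjusted p = 0.039), and it passed in edgeR with no filter (-0.53, adjusted p = 0.0181), without vehicle replicate 3 (-0.59, adjusted p = 0.04) or Act D replicate 3 (-0.64, adjusted p = 0.0334) of the uL3Δ-labelled libraries. CDK9 passed without vehicle replicate 3 of HCT 116p53-/- (-0.55, adjusted p = 0.0435). The rise of CDK9 and CCNT1 in HCT 116p53-/- alone was thus not shown to be a difference between the lines.

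Ratios within a library do not depend on how libraries are scaled, and were taken for the inhibitor over the kinase and for one cyclin over the other. The ratio of HEXIM1 to CDK9 in TPM was 0.729, 0.723 and 0.859 in HCT 116p53-/- with vehicle and 1.13, 1.18 and 1.03 with Act D. Under the uL3Δ label it was 0.754, 0.655 and 0.576 with vehicle and 1.49, 1.55 and 1.59 with Act D. Every library with Act D had more HEXIM1 than CDK9 per length and every library with vehicle had less. That split was particular to TPM. As a ratio of counts it was 1.23 to 1.38 in HCT 116p53-/- with vehicle and 0.933 to 1.32 under the uL3Δ label. With Act D the ratio of counts was 1.81 to 2.04 and 2.45 to 2.92.
The ratio was 1.45-fold higher with Act D in HCT 116p53-/- (log2 difference 0.53, standard error 0.10) and 2.34-fold higher in the uL3Δ-labelled libraries (1.23, standard error 0.12), each without overlap and with p = 0.1 in a two-sided exact permutation test, the smallest p that 3 against 3 allows (adjusted p = 0.267 over 8 ratio comparisons). Between the lines it was 1.39-fold higher in the uL3Δ-labelled libraries with Act D (0.47, standard error 0.07, no overlap, exact p = 0.1) and overlapped with vehicle (-0.22, standard error 0.14, exact p = 0.3). The ratio of CCNT2 to CCNT1 lay between 0.327 and 0.523 in all 12 libraries, and its groups overlapped in all 4 comparisons (exact p of 0.2 to 0.5). This overlap depended on the scale. As a ratio of counts it was 0.219 to 0.234 in the uL3Δ-labelled libraries and 0.286 to 0.335 in HCT 116p53-/- with vehicle, and 0.239 to 0.251 against 0.266 to 0.306 with Act D, so that the lines did not overlap (log2 differences -0.48 and -0.24, against -0.35 and -0.11 from TPM).

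**Figure D3:**
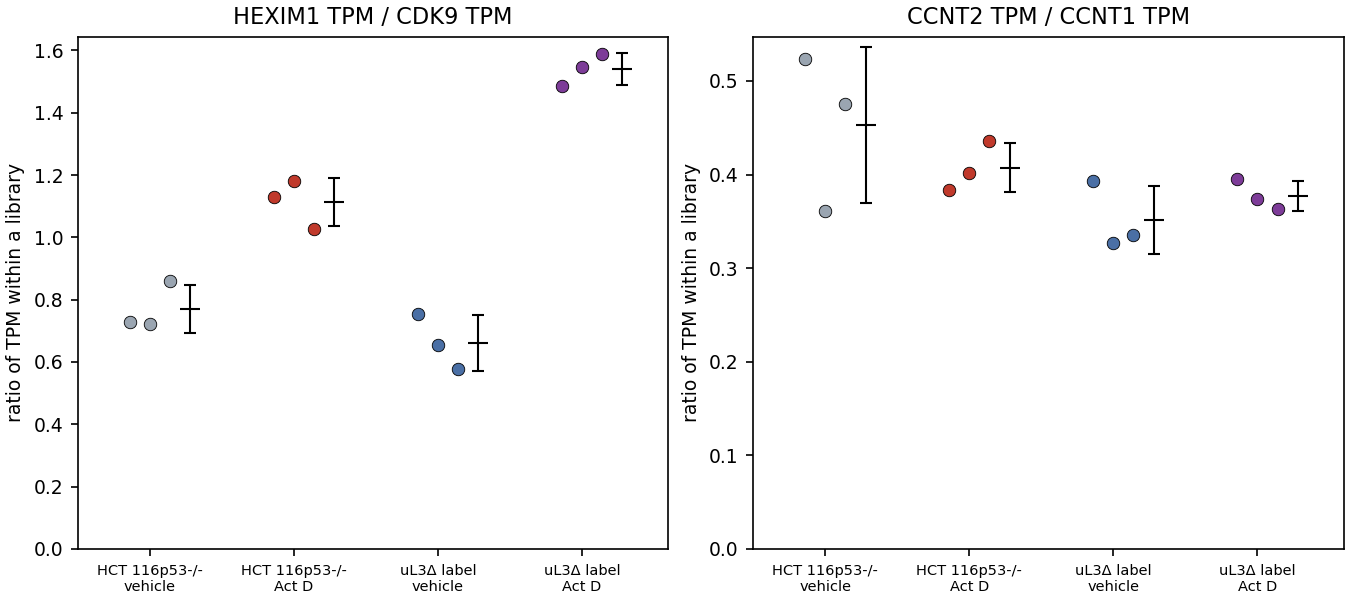
Ratio of TPM within each library (vertical axes, from 0) for HEXIM1 over CDK9 on the left and CCNT2 over CCNT1 on the right, by group. Points are libraries and bars the mean and SD of 3. The HEXIM1 to CDK9 ratio is 1.03 to 1.59 in the 6 libraries with Act D and 0.576 to 0.859 in the 6 with vehicle, whereas the CCNT2 to CCNT1 ratios of the groups overlap in TPM, though not between the lines in counts.

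The lines were then compared with each other under each treatment, in the same 4 groups of libraries that gave the responses to Act D. With vehicle, 8 of 9 genes differed, 2 higher and 6 lower in the uL3Δ-labelled libraries, where 71.3% of all genes tested passed (35.1% higher and 36.2% lower), so that 8 of 9 is close to what most genes did. Scaling by library size alone, which moved the median of all genes from -0.02 to -0.26, gave 1 higher and 7 lower. With Act D, 6 of 9 differed, 1 higher and 5 lower, against 70.4% of all genes (35.1% higher and 35.3% lower), or 1 higher and 7 lower with library size alone, where the median was -0.26. The median log2 fold change of the 9 was -0.39 with vehicle and -0.52 with Act D, against -0.02 over all genes in both. The lines did not overlap for 7 of 9 members with vehicle and 8 of 9 with Act D, against 72.5% and 74.1% of all genes.

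Among the P-TEFb subunits, CDK9 and CCNT1 lay on opposite sides. CDK9 was 1.75-fold lower in the uL3Δ-labelled libraries with vehicle (log2 fold change -0.80, 95% interval -1.05 to -0.56, adjusted p = 5.93e-06) and 2.31-fold lower with Act D (-1.21, -1.46 to -0.96, adjusted p = 5.75e-08). Its 6 libraries there reached 21.5 CPM at most, below the lowest of HCT 116p53-/- at 30.1 CPM. CCNT1 was 1.35-fold higher with vehicle, 148 to 175 CPM against 116 to 127 CPM (0.43, 0.22 to 0.64, adjusted p = 0.00073), and at 0.07 with Act D (-0.14 to 0.27, adjusted p = 0.545). With library size alone the CCNT1 value with vehicle was 0.19 (adjusted p = 0.0669). CCNT2 was at -0.06 with vehicle (-0.28 to 0.17, adjusted p = 0.655) and -0.17 with Act D (-0.40 to 0.05, adjusted p = 0.153), and with library size alone it passed as lower in both (-0.30, adjusted p = 0.0143, and -0.42, adjusted p = 0.00121).

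HEXIM1 was 2.11-fold lower in the uL3Δ-labelled libraries with vehicle (log2 fold change -1.08, 95% interval -1.42 to -0.74, adjusted p = 1.07e-05) and 1.66-fold lower with Act D (-0.73, -1.06 to -0.40, adjusted p = 0.000418). MEPCE (ENSG00000146834, plus strand of chromosome 7, 100428322 to 100434126) was at 66.6, 62.9 and 62.7 CPM in HCT 116p53-/- and 57.8, 45.2 and 42.7 CPM in the uL3Δ-labelled libraries with vehicle, and at 81.7, 77.5 and 71.1 against 36.7, 40.1 and 46.8 CPM with Act D. The groups were apart in both conditions, by -0.40 on the log2 scale (adjusted p = 0.00349) and by -0.90 (adjusted p = 1.51e-06). Annotated genes overlap MEPCE on both strands, as others overlap CDK9, CCNT2, LARP7, NELFE and HEXIM1. The authors' software left the MEPCE count uncertain by at most 0.054%. Whether reads of the overlapping genes entered it was not tested.
LARP7 (ENSG00000174720, plus strand of chromosome 4, 112637077 to 112657696) was at 46.3, 40.8 and 36.8 CPM against 31.0, 32.3 and 31.1 CPM with vehicle (-0.39, -0.61 to -0.17, adjusted p = 0.0026). With Act D it was at 34.6, 33.7 and 40.1 against 28.7, 33.4 and 30.6 CPM, with a narrow gap between the groups, and did not pass (-0.23, -0.45 to -0.002, adjusted p = 0.0671), though it did without Act D replicate 2 labelled uL3Δ (-0.32, adjusted p = 0.0284) and with library size alone (-0.47, adjusted p = 0.000819). All 3 protein genes of the 7SK RNP were thus lower in the uL3Δ-labelled libraries with vehicle, where 36.2% of all genes passed as lower. The 7SK RNA they bind gave -0.03 under TMM scaling. Its value with library size alone, which moved the median of all genes to -0.26, is not given here.

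The pausing factors differed in opposite directions. NELFE, which encodes the RNA-binding subunit of NELF (ENSG00000204356, minus strand of chromosome 6, 31952087 to 31959038), stood at 41.9, 41.3 and 38.1 CPM in HCT 116p53-/- and at 74.9, 79.1 and 65.2 CPM in the uL3Δ-labelled libraries with vehicle, a 1.81-fold difference (log2 fold change 0.85, 95% interval 0.63 to 1.08, adjusted p = 1.5e-06). With Act D the values were 42.5, 42.1 and 39.1 against 70.3, 55.8 and 77.6 CPM, 1.65-fold higher (0.72, 0.49 to 0.95, adjusted p = 1.5e-05). It was the one member higher under both treatments.
SUPT5H (ENSG00000196235, plus strand of chromosome 19, 39436156 to 39476670) was at 131, 143 and 114 CPM against 118, 105 and 104 CPM with vehicle, groups that overlapped (-0.25, -0.46 to -0.03, adjusted p = 0.0378). This call was lost without HCT 116p53-/- replicate 1 (-0.23, adjusted p = 0.0832) or 2 (-0.17, adjusted p = 0.192) and without replicate 2 (-0.22, adjusted p = 0.106) or 3 (-0.21, adjusted p = 0.122) labelled uL3Δ, with only the 2 groups compared (-0.24, adjusted p = 0.0528) and with small RNA genes left out (-0.22, adjusted p = 0.066). With Act D SUPT5H was at 151, 133 and 132 against 95.5, 86.8 and 109 CPM, without overlap (-0.52, -0.73 to -0.30, adjusted p = 0.000214).

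POLR2A was 2.23-fold lower in the uL3Δ-labelled libraries with vehicle (log2 fold change -1.15, 95% interval -1.60 to -0.71, adjusted p = 9.66e-05) and 2.46-fold lower with Act D (-1.30, -1.75 to -0.85, adjusted p = 2.78e-05). With Act D the lines were far apart, at 151 to 205 CPM against 438 to 492 CPM. Both the HEXIM1 and the POLR2A difference held in every alternative analysis of the comparison between lines.

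**Figure D4:**
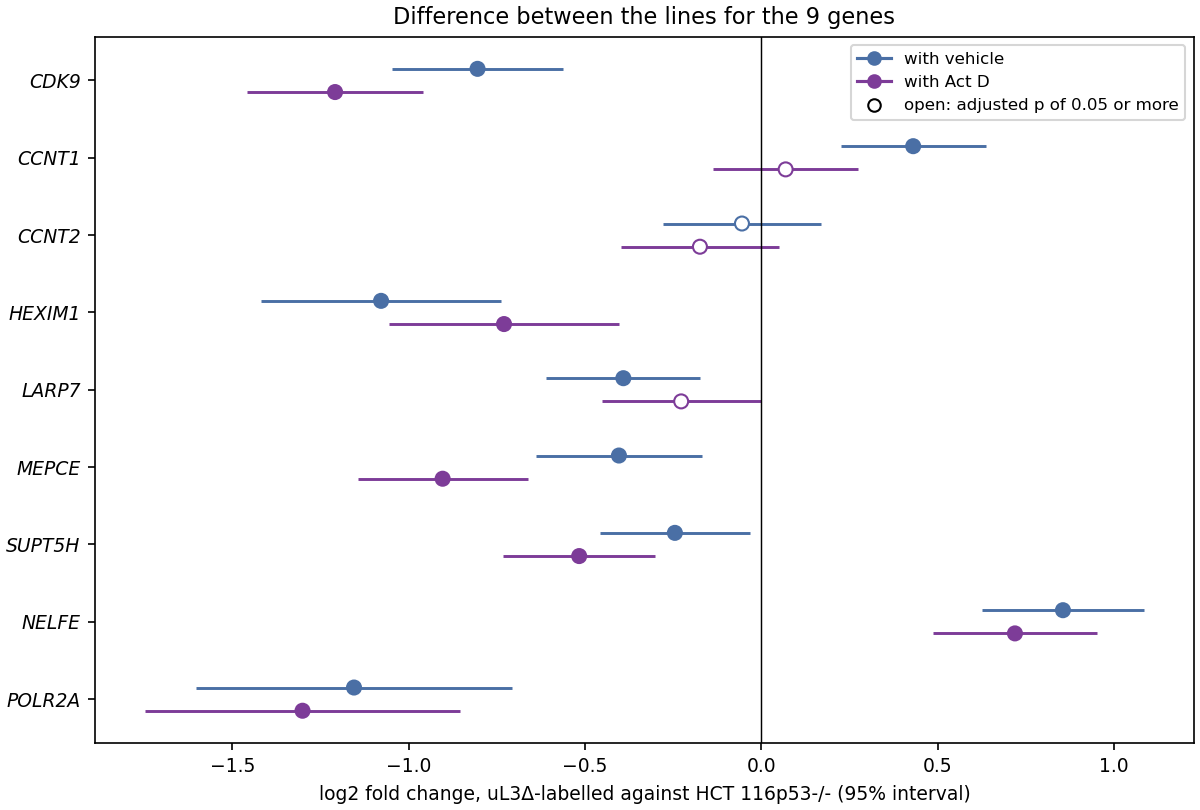
Log2 fold change of each gene in the uL3Δ-labelled libraries against HCT 116p53-/- (horizontal axis), with vehicle and with Act D, with 95% intervals. Filled points passed at an adjusted p under 0.05. NELFE lies to the right of 0 (0.85 and 0.72) and CDK9, HEXIM1 and POLR2A to the left by 0.73 to 1.30 under both treatments.

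Patterns over the 12 libraries were compared by Pearson's r of log2 CPM, given as a description, since the libraries fall into 4 groups that share line and treatment. HEXIM1 and POLR2A were each other's closest members (r = 0.94). MEPCE and SUPT5H had r = 0.92 and CDK9 and MEPCE had r = 0.92, while CDK9 and NELFE ran opposite (r = -0.89). Among the 10866 genes with a mean of at least 5 CPM, the most alike was TOB2 for HEXIM1 (r = 0.95), KLHL11 for POLR2A (r = 0.97), PLXNB2 for CDK9 (r = 0.99), DHX9 for CCNT1 (r = 0.96), UTP23 for CCNT2 (r = 0.97), XRCC5 for LARP7 (r = 0.94), ZNFX1 for MEPCE (r = 0.98), PES1 for SUPT5H (r = 0.96) and ZMAT5 for NELFE (r = 0.98).

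For 1 library, HCT 116p53-/- with vehicle replicate 2, values per transcript showed which forms of the members carried the counts. HEXIM1 has a single annotated transcript. CDK9-201 held 94.3% of the CDK9 count, though 74.7% of its TPM, and CCNT1-201 held 89.6% of the CCNT1 count. CCNT2 was divided between CCNT2-201 (52.4%) and CCNT2-202 (36.7%), and MEPCE between MEPCE-202 (57.3%) and MEPCE-201 (42.2%). For POLR2A, 59.1% of the count was on a transcript not in GENCODE 44. Another 37.3% was on POLR2A-209, which is annotated without a defined coding sequence. Of the LARP7 count 20.3% was assigned to LARP7-210, a transcript annotated for nonsense-mediated decay. Without other libraries at this level, forms could not be compared between groups.

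The wider elongation machinery was described over 58 further genes in 6 lists. With Act D in HCT 116p53-/-, 4 of the 58 rose and 8 fell, against 18.7% of all genes passing in either direction, with a median of 0.10 against 0.02 over all genes. In the uL3Δ-labelled libraries 2 rose and 13 fell, against 11.9%, with a median of -0.05 against 0.03. The split depended on scaling, with 9 higher and 6 lower in HCT 116p53-/- and 4 higher and 7 lower in the uL3Δ-labelled libraries under upper-quartile scaling. That scaling also moved the median over all genes, to 0.053 and 0.092. Between the lines 26 were higher and 13 lower in the uL3Δ-labelled libraries with vehicle and 22 and 17 with Act D, against 71.3% and 70.4% of all genes. Library size alone turned the first to 19 and 22 and the second to 15 and 26, with a median over all genes of -0.26 in both. Shares of all genes under these other scalings are not given here, so a shift of the lists cannot be told from one of all genes.

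Among the 8 genes of 7SK and P-TEFb recruitment, 1 rose and 2 fell with Act D in each line. That was 37.5% in each, against 18.7% of all genes in HCT 116p53-/- and 11.9% in the uL3Δ-labelled libraries. BRD2, a bromodomain protein that reads acetylated histones, rose from 275, 286 and 256 CPM to 484, 459 and 465 CPM in HCT 116p53-/- and from 318, 303 and 322 CPM to 453, 461 and 492 CPM in the uL3Δ-labelled libraries. The groups were apart in both lines (log2 fold change 0.79, adjusted p = 1.45e-06, and 0.57, adjusted p = 7.21e-05). BRD3 fell by 0.56 in HCT 116p53-/- (adjusted p = 0.0163). PPM1G, a phosphatase that acts in the release of P-TEFb, was higher in the uL3Δ-labelled libraries with vehicle (0.88, adjusted p = 2.64e-07). The BRD3 response (-0.70 to -0.41 over 20 alternatives) did not pass without vehicle replicate 3 or Act D replicate 1 or 2 of HCT 116p53-/-.

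None of the 5 pausing partners passed for Act D in either line in edgeR's test or in DESeq2, and 0 had an unadjusted p under 0.05. Over all genes 18.7% passed for Act D in HCT 116p53-/- and 11.9% in the uL3Δ-labelled libraries. Between the lines with vehicle 1 of 5 differed, against 71.3% of all genes. That gene was NELFCD, another subunit of NELF, at 71.8, 74.7 and 68.8 CPM in HCT 116p53-/- and 26.8, 30.2 and 24.2 CPM in the uL3Δ-labelled libraries (2.65-fold lower, adjusted p = 5.54e-10). NELFE and NELFCD, which belong to one complex, thus differed between the lines in opposite directions, and NELFA (-0.02, adjusted p = 0.867) and NELFB (-0.25, adjusted p = 0.0904) did not pass.

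The super elongation complex joins P-TEFb to ELL and AFF proteins. With vehicle 5 of its 9 genes were higher and 2 lower in the uL3Δ-labelled libraries. That was 77.8% of the list, against 71.3% of all genes (35.1% higher and 36.2% lower). ELL2, an elongation factor, was at 31.1, 29.2 and 33.0 CPM against 200, 227 and 219 CPM (log2 fold change 2.79, adjusted p = 3.73e-14). ELL3 was at 8.06 to 9.18 CPM against 0.482 to 0.810 CPM (-3.86, adjusted p = 9.55e-10), with counts that the authors' software left uncertain by up to 23.4%. MLLT1, which reads acylated histones and tethers the complex to chromatin, fell with Act D in HCT 116p53-/- from 50.1, 56.8 and 61.2 CPM to 15.3, 17.3 and 13.7 CPM (-1.86, adjusted p = 4.37e-08). In the uL3Δ-labelled libraries it was already at 19.5, 17.9 and 19.6 CPM with vehicle and at 18.1, 13.7 and 14.03 CPM with Act D (-0.30, adjusted p = 0.161). MLLT3, a close relative of MLLT1, fell by 0.58 with Act D in HCT 116p53-/- (adjusted p = 0.04996), at 5.83, 4.82 and 5.98 CPM against 4.80, 3.18 and 3.06 CPM, just inside the threshold. It did not pass in 13 of 20 alternatives (-0.83 to -0.46), DESeq2 and the fits without vehicle replicate 1 or 3 or Act D replicate 2 or 3 of that line among them. With Act D ELL (-0.78, adjusted p = 0.00082) and AFF4 (-0.34, adjusted p = 0.0246) fell in the uL3Δ-labelled libraries. The AFF4 response (-0.45 to -0.27 over 20 alternatives) did not pass under upper-quartile scaling or without vehicle or Act D replicate 1 or 3 of that line.

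Of the 12 genes of PAF1, SPT6, FACT and TFIIS, factors that travel with elongating Pol II, 0 rose and 1 fell with Act D in HCT 116p53-/- (CDC73, -0.33, adjusted p = 0.0209) and 1 rose and 2 fell in the uL3Δ-labelled libraries, among them CTR9 (0.39, adjusted p = 0.0134) and IWS1 (-0.31, adjusted p = 0.0354). Over all genes 18.7% passed for Act D in HCT 116p53-/- and 11.9% in the uL3Δ-labelled libraries. Between the lines with vehicle 4 were higher and 4 lower, led by TCEA2, a TFIIS form (1.58, adjusted p = 2.98e-07), and CDC73 (0.90, adjusted p = 7.88e-08), both higher in the uL3Δ-labelled libraries. That was 66.7% of the list, against 71.3% of all genes. The 3 responses to Act D named here did not pass without some single libraries of their own line: any but vehicle replicate 2 for CDC73 (-0.43 to -0.30 over 20 alternatives), vehicle replicate 1 and Act D replicates 2 and 3 for CTR9 (0.27 to 0.48), and vehicle replicates 2 and 3 and Act D replicates 1 and 3 for IWS1 (-0.42 to -0.25). CTR9 was also lost with library size alone and with only the 2 groups compared, and IWS1 under upper-quartile scaling, with the replicate block and with only the 2 groups compared.

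The 13 other CTD kinases and phosphatases act on the same Pol II domain as P-TEFb. In the uL3Δ-labelled libraries, 6 of them fell with Act D and none rose, against 3 and none in HCT 116p53-/-. That was 46.2% and 23.1% of the list, where 8.4% and 11.1% of all genes fell. CTDP1, a CTD phosphatase, went from 52.1, 32.4 and 30.9 CPM to 17.1, 21.01 and 16.5 CPM (log2 fold change -1.08, adjusted p = 0.000475), and CDK12, a kinase of elongating Pol II, from 143, 122.5 and 137 CPM to 80.2, 95.1 and 90.9 CPM (-0.60, adjusted p = 0.000287). In HCT 116p53-/- CTDSPL (-0.69, adjusted p = 0.000377) and SSU72 (-0.52, adjusted p = 0.0042), both phosphatases, fell. Between the lines with vehicle CTDSP2 was higher (2.24, adjusted p = 1.77e-11) and CTDSPL lower (-1.32, adjusted p = 1.46e-08) in the uL3Δ-labelled libraries.

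Of the 11 other Pol II subunits, few passed for Act D. In HCT 116p53-/- 1 of 11 rose (POLR2F, 0.42, adjusted p = 0.016) and 1 of 11 fell in the uL3Δ-labelled libraries (POLR2B, -0.25, adjusted p = 0.0434), with medians of 0.21 and -0.005 on the log2 scale. Each was 9.09% of the list, against 18.7% and 11.9% of all genes. Between the lines with vehicle 7 were higher and 2 lower in the uL3Δ-labelled libraries, where POLR2A was lower, with POLR2J (0.95, adjusted p = 8.25e-06) and POLR2E (0.90, adjusted p = 3.04e-06) the farthest apart. That was 81.8% of the list, against 71.3% of all genes. The POLR2F response (0.32 to 0.51 over 20 alternatives) did not pass with library size alone or without vehicle replicate 3 or Act D replicate 2, and that of POLR2B (-0.36 to -0.19) did not pass in 11 of 20, among them upper-quartile scaling and leaving out any library of its line except Act D replicate 2.

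**Figure D5:**
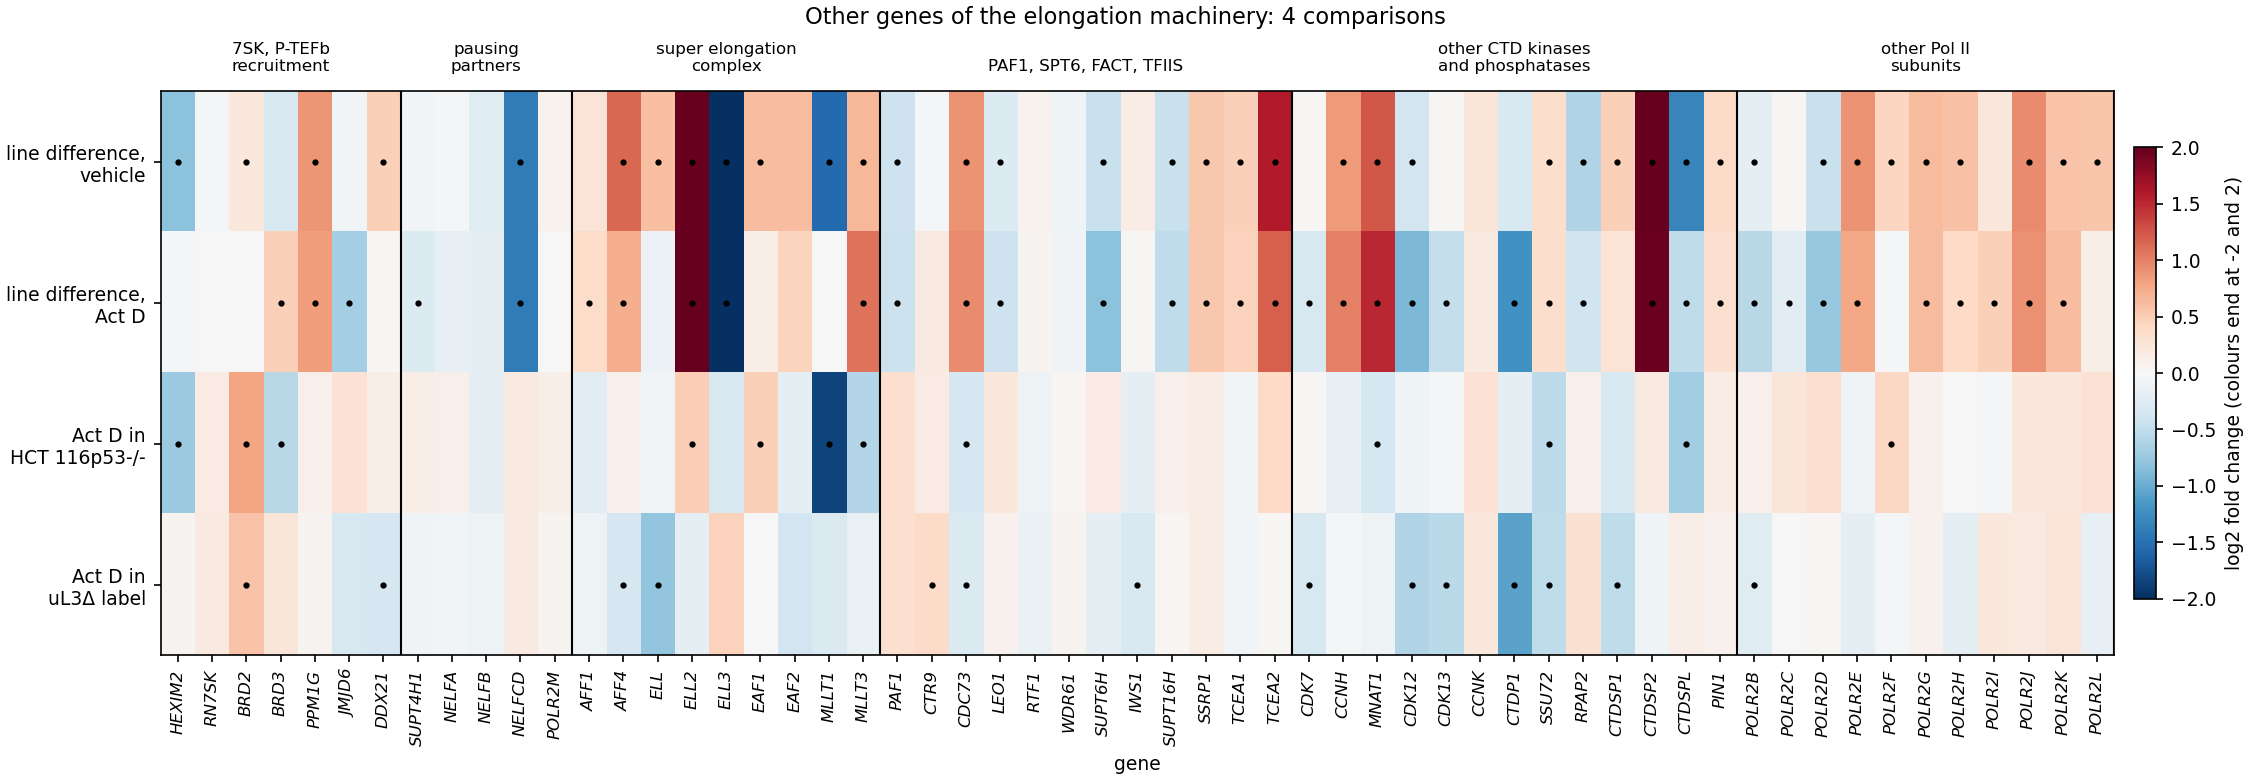
Log2 fold change (colour, red higher and blue lower, ending at -2 and 2) of 57 of the 58 other genes of the elongation machinery (columns, by list) in 4 comparisons (rows). Dots mark an adjusted p under 0.05. Dots are denser in the upper rows, which compare the lines (38 and 38 genes), than in the rows for Act D (12 and 14 genes).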

How the data were processed

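RNA-seq of 12 libraries was analysed (TruSeq kit, paired reads, strand setting not given in the sources used here). The authors trimmed reads, removed those of ribosomal RNA and other contaminants, and used RSEM 1.2.25 to assign the rest to transcripts and genes of Ensembl on hg38, per the submitters' processing notes. They deposited RSEM expected counts, which are not normalized and can be fractional, and TPM values per effective length. The deposited posterior SD of a count (standard deviation from other sources of a read) was at most 0.167% for the 9 members. Replicate 2 of HCT 116p53-/- with vehicle was deposited per transcript (226788 transcripts) and summed per gene, and its posterior SD was not used. GENCODE 44 gave names and coordinates for 60261 of 60617 identifiers, and RefSeq the promoters.

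Expected counts were rounded and tested with edgeR 4.0.16 (filterByExpr, TMM factors of 0.847 to 1.148, quasi-likelihood test over all 12 libraries with 1 coefficient per group). Every adjusted p of a gene comes from this test with Benjamini-Hochberg adjustment over 15692 genes, and a gene passed under 0.05. P-values measure the spread between libraries labelled as biological replicates. Ratios of TPM were compared by exact permutation tests. In data simulated for Act D in HCT 116p53-/- (15283 genes, 200 changed by 1 on the log2 scale), edgeR recovered 178 with 8 false calls and DESeq2 1.42.0 recovered 163 with 13. The simulation gave every gene the same spread and held no line difference or outlying library. It therefore does not show how often calls are right in the measured libraries. No pair of replicates agreed within sampling noise (chi-square per degree of freedom 6.99 to 101.78).

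The members and lists were chosen with earlier results of these data known. 1 gene of the 6 lists enters their counts and medians and is not reported here by name. Named genes outside the members are the 2 with the largest log2 fold change per list and comparison among those that passed with a mean of at least 5 CPM in a group, and for likeness the 1 gene with the highest r. HEXIM2-AS1 and the other overlapping genes, NELFA, NELFB, RN7SK and, for the difference of the responses, DDX21, EAF1, ELL2, CDK12 and CDK13 were named after their values were seen. Alternatives were DESeq2, library size alone, upper-quartile scaling, no filter, a minimum of 1 CPM in 3 libraries (14917 genes), a block on the replicate number, the 2 groups compared alone, each library left out and, chosen after seeing the data, 7SL, 7SK and other small RNA genes (911) left out. R 4.3.3, Python 3.11.15, pandas 2.3.3, SciPy 1.17.1 and matplotlib 3.10.9 were used.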

Additional observations from a re-analysis of the deposited data

Results flagged for a closer look

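For 11 of the 58 further genes the response to Act D differed between the lines in a test of the difference itself (edgeR's quasi-likelihood interaction, uL3Δ-labelled libraries minus HCT 116p53-/-, log2 scale), against 6.53% of all genes. The difference was positive for MLLT1 at 1.56 (adjusted p = 9.07e-05), CTDSPL at 0.82 (adjusted p = 0.00785) and BRD3 at 0.80 (adjusted p = 0.0349). It was negative for ELL2 at -0.69 (adjusted p = 0.00439), JMJD6 at -0.62 (adjusted p = 0.0168), EAF1 at -0.49 (adjusted p = 0.0175), CDK12 at -0.52 (adjusted p = 0.0207) and DDX21 at -0.45 (adjusted p = 0.0272). It was also negative for ELL at -0.73 (adjusted p = 0.0277), CTDP1 at -0.90 (adjusted p = 0.0297) and CDK13 at -0.50 (adjusted p = 0.0368). In all 19 alternatives only MLLT1 (1.404 to 1.648), CTDSPL (0.74 to 0.90) and ELL2 (-0.81 to -0.65) kept passing, while CDK13 was lost in 9, BRD3 in 8, DDX21 and ELL in 7, CTDP1 in 5, CDK12 in 4, EAF1 in 2 and JMJD6 in 1. JMJD6 was lost with library size alone (highest adjusted p = 0.0521) and EAF1 without Act D replicate 1 of either line (highest adjusted p = 0.0579). CDK12 was lost without vehicle replicate 2 or Act D replicate 1 or 3 of HCT 116p53-/- or Act D replicate 1 of the other line (highest adjusted p = 0.0645). The other 5 were lost without 5 or more different libraries, or under library size alone or the replicate block as well, at -0.63 to -1.04 for CTDP1, -0.64 to -0.95 for ELL, -0.39 to -0.53 for DDX21, 0.65 to 0.92 for BRD3 and -0.43 to -0.59 for CDK13 over all alternatives. No test for a single outlying library was made for any gene, since groups held 3 libraries.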

How the results depend on the processing

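Of 675 alternative values for the log2 fold changes of the 9 members, 633 kept the side of the threshold, 31 lost a call, 11 gained one and 0 reversed a called direction. Among the 633, values called in neither fit could change sign. CCNT2 between the lines with vehicle did so, from -0.06 to 0.02 without vehicle replicate 1 of HCT 116p53-/-. For Act D in the uL3Δ-labelled libraries, the number of members that passed fell from 3 to 1 with library size alone and with only the 2 groups compared, and lay between 1 and 4 when single libraries were left out. For the difference of the responses, DESeq2 and no filter gave 1 member (MEPCE), and leaving out single libraries gave 0 to 1. Leaving out single libraries gave 7 to 12 of the 58 further genes for Act D in HCT 116p53-/-, 8 to 14 in the uL3Δ-labelled libraries and 4 to 13 for the difference of the responses, and over all genes 1833 to 2312 (2939 with all libraries) and 614 to 979 (1025 with all libraries). Fewer libraries enter these fits. The HEXIM1 to CDK9 ratio kept its direction in all alternatives, by 0.49 to 0.61 without single libraries and 0.53 from counts in HCT 116p53-/- and by 1.13 to 1.32 and 1.30 in the uL3Δ-labelled libraries on the log2 scale.

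With the replicate number as a block, 8, 6, 5, 2 and 0 members passed in the 5 comparisons, the call lost being CCNT2 with Act D in the uL3Δ-labelled libraries (0.34, adjusted p = 0.0725), and 2469 and 1502 genes passed for Act D in the 2 lines against 2939 and 1869 without it. Libraries that share a number were not alike (correlation of deviations -0.104 to 0.101), so the numbers were not taken as a pairing. Genes at a few CPM, such as ELL3 in the uL3Δ-labelled libraries, are limited by depth.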
